A study of Homo sapiens with 8 samples.

Results

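The genes described here are 10 long noncoding RNA genes whose spans hold small nucleolar RNAs (snoRNAs): GAS5, SNHG1, SNHG3, SNHG5, SNHG6, SNHG7, SNHG8, SNHG12, SNHG15 and ZFAS1. They were taken by symbol from the count tables of 22RV1 and DU145 cells, where all 10 were found among 58828 listed genes. Both are established human prostate cancer cell lines. 22RV1 has luminal features that DU145 lacks. Each line had been transduced by lentivirus with a doxycycline-inducible construct for PAGE4, a cancer/testis antigen, or with the vector alone, and all cells received doxycycline. Cells received PBS or H2O2 (200 mM as the labels give it) for 12 h, which gave 8 conditions with 1 library each. Whether the libraries of a line came from separate cultures or clones is not stated in the sources used here, so every p-value below measures only the spread between these libraries.

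snoRNAs guide chemical changes to ribosomal RNA: box C/D snoRNAs direct ribose methylation and box H/ACA snoRNAs direct pseudouridylation. In mammals most of them are cut from introns of a host transcript, so splicing the host releases the guide. The spliced host RNA often starts with a run of pyrimidines, as the mRNAs of ribosomal proteins do, is bound by ribosomes, and is then degraded by nonsense-mediated decay (NMD). The level of a host RNA therefore depends on its synthesis and on its decay, and RNA-seq of 1 time point does not separate them.

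Library totals ran from 25482984 to 43310401 counts with a median of 29843277. The 10 host transcripts took between 0.0452% and 0.0699% of the counts in 22RV1 and between 0.0751% and 0.203% in DU145. PAGE4 was at 1 and 0 counts in the 22RV1 vector libraries and at 1489 and 1179 in the 22RV1 PAGE4 libraries. In DU145 it was at 1 count in both vector libraries and at 1001 and 1431 in the PAGE4 libraries, so the construct labels hold in all 8. The luminal markers KLK2, KLK3, TMPRSS2, HOXB13 and FOLH1 were each at 142 to 8635 counts in the 22RV1 libraries and at 0 to 4 in the DU145 libraries. In 22RV1 they were lower with H2O2, their sum going from 422 to 179 CPM (counts scaled to library totals) in vector cells and from 388 to 193 in PAGE4 cells. The sum of VIM, CD44, CAV1, KRT5 and S100A2, taken as markers of DU145, went from 118 to 218 CPM in 22RV1 vector cells and from 123 to 251.4 in 22RV1 PAGE4 cells. Most of it there was CD44. That gene was not higher in DU145, at 2245 to 4266 counts against 4014 to 6906 in 22RV1, so it does not mark DU145 in these libraries. VIM was lower with H2O2 in 22RV1, at 1010 against 394 counts in vector cells and 470 against 267 in PAGE4 cells. KRT5 was at 0 to 3 counts in all 8 libraries. In DU145 the sum went from 556 to 709 and from 597 to 719. The part of these shifts in the results was not tested. Markers of leukocytes and endothelium (PTPRC, CD3E, CD68, PECAM1) summed to between 0.153 and 0.536 CPM on the same scale. The share of counts from mitochondrial genes was lower with H2O2 in all 4 matched pairs, at 8.97% to 11.2% against 10.2% to 16.5%, and its part in the results was not tested.

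In the RefSeq annotation the 10 spans hold 36 snoRNAs, of which 25 are box C/D and 10 are box H/ACA. GAS5 holds 11, SNHG1 holds 9 and SNHG12 holds 4. ZFAS1 holds 3, namely SNORD12, SNORD12B and SNORD12C. SNHG3 carries SNORA73A and SNORA73B, SNHG5 carries SNORD50A and SNORD50B, and SNHG7 carries SNORA17A and SNORA17B. SNHG6, SNHG8 and SNHG15 carry 1 each, which are SNORD87, SNORA24 and SNORA9. GENCODE places SNORA9 in an exon of the canonical SNHG15 transcript and not in an intron. The start regions of the hosts were also examined. RefSeq (GRCh38.p14) start windows were matched for 8 of the 10, and no window was matched for SNHG6 or SNHG15.

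In 5 of the 8, the 80 bases around the RefSeq start held both a TATAA box and a pyrimidine tract, and these are shown together on the gene's own strand, from 45 bases before the start. Capitals mark TATAA, and then the tract, which is a C followed by at least 4 C or T. That C lies within 15 bases of the start, on either side of it. In SNHG7 the tract begins 14 bases before the start and is 11 bases long, so it lies wholly before the annotated RNA. The windows are chr20:49278597-49278676 on the plus strand for ZFAS1, chr1:28581839-28581918 on the minus strand for SNHG12, chr4:118278717-118278796 on the plus strand for SNHG8, chr6:85678699-85678778 on the minus strand for SNHG5 and chr9:136728150-136728229 on the minus strand for SNHG7.
ZFAS1: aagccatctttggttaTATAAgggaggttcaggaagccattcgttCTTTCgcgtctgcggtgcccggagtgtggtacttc
SNHG12: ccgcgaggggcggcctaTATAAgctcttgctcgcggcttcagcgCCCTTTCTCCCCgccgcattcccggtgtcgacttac
SNHG8: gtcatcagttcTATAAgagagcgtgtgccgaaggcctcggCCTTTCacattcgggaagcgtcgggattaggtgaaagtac
SNHG5: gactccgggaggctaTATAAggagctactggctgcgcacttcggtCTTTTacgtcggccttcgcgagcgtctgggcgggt
SNHG7: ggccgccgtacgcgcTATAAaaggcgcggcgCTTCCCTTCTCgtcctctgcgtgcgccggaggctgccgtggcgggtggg
SNHG1 and SNHG3 are shown for contrast. In DU145, SNHG1 had one of the largest responses to H2O2 and SNHG3 had the smallest. By these rules, placed from the RefSeq start, SNHG1 and SNHG3 held neither motif. Their windows are chr11:62855851-62855930 on the minus strand and chr1:28505898-28505977 on the plus strand, without capitals.
SNHG1: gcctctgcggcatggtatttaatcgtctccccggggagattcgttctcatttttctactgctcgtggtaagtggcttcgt
SNHG3: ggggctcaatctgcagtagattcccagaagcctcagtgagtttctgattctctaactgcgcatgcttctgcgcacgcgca

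TATAA starting 40 to 20 bases before the start was found in 3.91% of 35116 RefSeq start windows, against 5 of the 8 hosts. This search was chosen after the sequences were seen. The tract was found in 43.4% of all windows, against 5 of the 8 hosts. With only 8 windows this is near the background share, so the tract is not read as a trait of the hosts. Both searches used the gene's strand, and the box and the tract do not overlap in any of the 5. Motifs of stress and growth factors were searched on both strands of the full 300-base windows. CACGTG, the E-box bound by MYC and other factors, was in SNHG7 and in 7.26% of all windows. TGACNNNGC, the core of the antioxidant response element, was in none of the 8 and in 13.4% of all windows. TTGCATCA, a motif of the amino acid response factor ATF4, was in none of the 8 and in 0.866% of all windows. The GAS5 window held neither motif and is not printed. The RefSeq start and the start of the GENCODE canonical transcript lie 1056 bases apart for GAS5 and 1113 bases apart for SNHG12. The windows of these genes may therefore miss the start used in these cells. The starts lie 54 bases apart for SNHG8, 37 for SNHG1, 37 for SNHG3 and 15 for SNHG5, and coincide for SNHG7 and ZFAS1. The tract and TATAA were placed from the RefSeq start only. Where the starts differ, their presence or absence at the GENCODE start was not tested.

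Across the lines, GAS5 was the most abundant of the hosts per length. From here on, CPM are scaled with TMM factors. On the scale of CPM per kilobase of the GENCODE canonical transcript, its mean level over the vector and PAGE4 libraries (n = 2) was 186 in 22RV1 with PBS and 263 with H2O2. In DU145 it was 275 with PBS and 788 with H2O2. SNHG1 came second in each of these 4 settings, at 48.7, 62.0, 99.9 and 352 in the same order. At the other end were ZFAS1 in 22RV1, at 3.40 with PBS, and SNHG8 in DU145, at 2.53 with PBS. The order depends on the length taken: over the union of all annotated exons, SNHG6 led in DU145 with PBS at 44.3, ahead of GAS5 at 42.8. The annotation release behind the counts is not given in the sources used here.

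**Figure D1:**
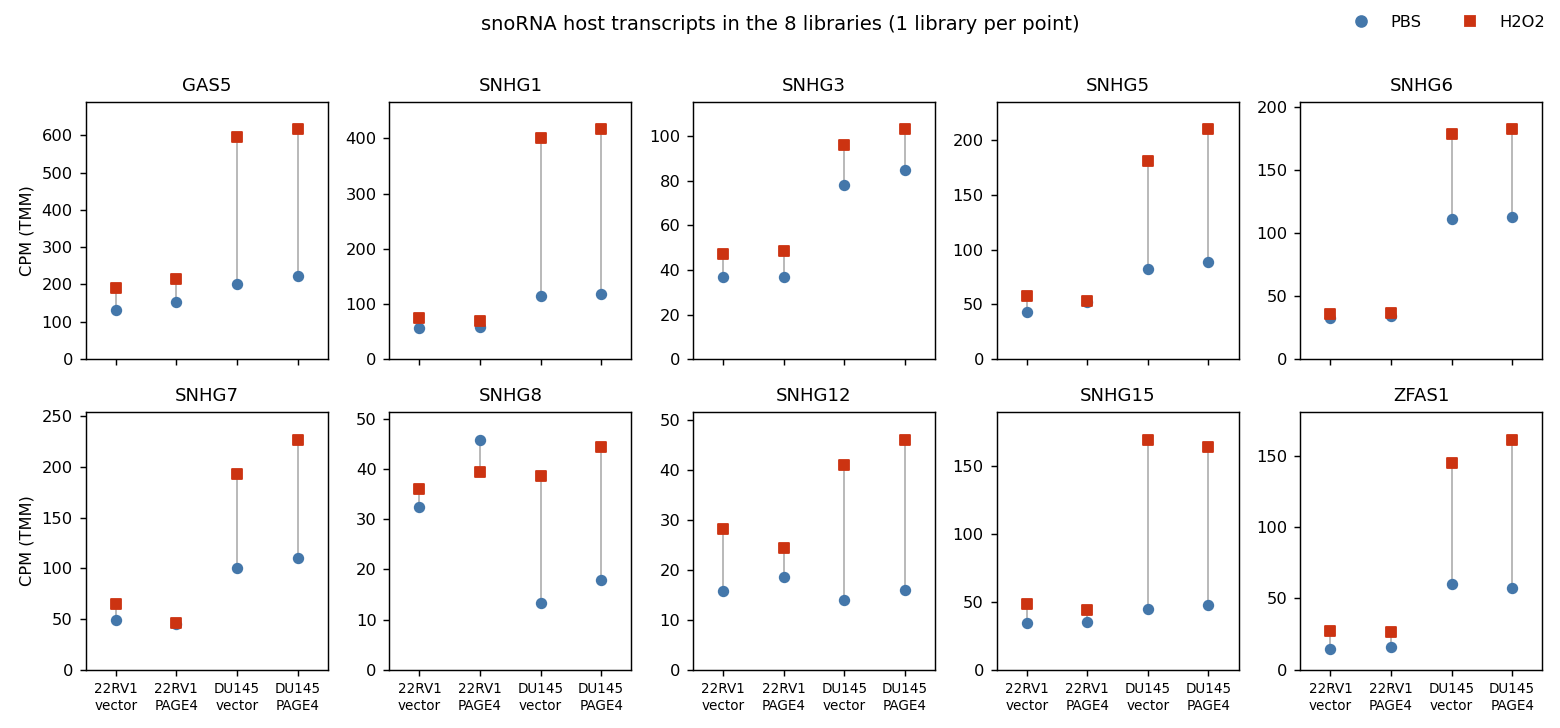
CPM (TMM-scaled, linear axis from 0, a separate scale per panel) of the 10 host transcripts, 1 point per library, with blue circles for PBS, red squares for H2O2 and a grey line joining the matched pair. The red squares lie above the blue circles in both DU145 pairs of every gene, and in 22RV1 the gaps are smaller, with SNHG8 at 45.9 with PBS and 39.4 with H2O2 in PAGE4 cells.

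In DU145 every host transcript was higher with H2O2, most of them by 2-fold or more. By edgeR's quasi-likelihood test with Benjamini-Hochberg adjustment over 22418 genes, 10 of 10 were higher with H2O2, where 16.9% of all genes tested were higher and 19.8% lower. Their median log2 fold change was 1.37, against -0.03 over all genes tested. In both DU145 pairs of libraries 9 of the 10 were over 1.5-fold higher, where the share of genes was 19.0% in the vector pair and 19.4% in the PAGE4 pair. None of the 10 was over 1.5-fold lower, where 21.3% and 21.9% of genes were. SNHG3 was the exception in both. RNA was taken from whole cultures, so fewer cells of a type and less RNA per cell cannot be told apart in these values.

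SNHG15 and SNHG1 had the largest increases. SNHG15 (chromosome 7, 44983019 to 44986961, minus strand, GENCODE on GRCh38), which carries SNORA9, was at 44.7 CPM in DU145 vector cells with PBS and at 169 with H2O2. In DU145 PAGE4 cells it was at 47.3 with PBS and 163 with H2O2. Both treated libraries lay far above both controls, and the log2 fold change was 1.82 ± 0.09 (SE; edgeR adjusted p = 3.45e-10), which is 3.53-fold. SNHG1 (chromosome 11, 62851978 to 62855953, minus strand), host of box C/D snoRNAs, went from 114 to 400 CPM in vector cells and from 118 to 417 in PAGE4 cells. Its log2 fold change was 1.78 ± 0.08 (SE; edgeR adjusted p = 6.42e-11), and its gap to SNHG15, 0.04, was smaller than the joint SE of 0.12. Of all genes tested, 4.02% had a larger log2 fold change than SNHG15 in DU145.

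GAS5, SNHG12, SNHG8 and ZFAS1 formed the next group. GAS5 (chromosome 1, 173858559 to 173868882, minus strand), named for its rise in growth-arrested cells, was at 200.3 and 222 CPM in the DU145 controls and at 595 and 616 in the treated libraries, vector before PAGE4. That is a log2 fold change of 1.49 ± 0.07 (SE; edgeR adjusted p = 2.12e-10), or 2.81-fold. SNHG12 (chromosome 1, 28578538 to 28583132, minus strand) was much less abundant, with controls at 13.9 and 15.9 and treated libraries at 41.0 and 46.0 CPM. Its log2 fold change, 1.51 ± 0.14 (SE; edgeR adjusted p = 1.82e-07), was nevertheless as large. SNHG8 (chromosome 4, 118278703 to 118285316, plus strand), host of SNORA24, was at 13.2 and 17.9 CPM in the controls and at 38.7 and 44.5 in the treated libraries. ZFAS1 (chromosome 20, 49278178 to 49299600, plus strand), host of the SNORD12 snoRNAs, had controls at 60.3 and 57.3 and treated libraries at 145 and 161. Their log2 fold changes were 1.39 ± 0.13 and 1.35 ± 0.10 (SE), with edgeR adjusted p of 2.42e-07 and 1.55e-08. From SNHG12 down to ZFAS1, each gap between neighbours in this order was smaller than its joint SE.

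SNHG5, SNHG7, SNHG6 and SNHG3 rose less, in that order, each gap being larger than its joint SE. SNHG5 (chromosome 6, 85650491 to 85678932, minus strand), host of SNORD50A and SNORD50B, had controls at 82.3 and 89.1 and treated libraries at 181 and 210.0 CPM. SNHG7 (chromosome 9, 136721366 to 136728184, minus strand), host of SNORA17A and SNORA17B, was at 100.5 and 110 against 193 and 227. SNHG6 (chromosome 8, 66920561 to 66926398, minus strand), host of SNORD87, was at 111 and 113 against 178 and 182. No treated library overlapped a control for any of these genes. Their log2 fold changes were 1.16 ± 0.10, 0.96 ± 0.09 and 0.66 ± 0.08 (SE), with edgeR adjusted p of 9.43e-08, 4.92e-07 and 8.66e-06.

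SNHG3 (chromosome 1, 28505980 to 28510892, plus strand), host of SNORA73A and SNORA73B, stood at the low end. Its DU145 controls were at 78.0 and 84.7 CPM and its treated libraries at 96.0 and 103. The log2 fold change was 0.26 ± 0.09 (SE; edgeR adjusted p = 0.0303), and 32.2% of all genes tested had a larger one. This call was lost without the DU145 PAGE4 pair (adjusted p = 0.259) and without the DU145 vector pair (adjusted p = 0.296), with nearly the same fold change.

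**Figure D2:**
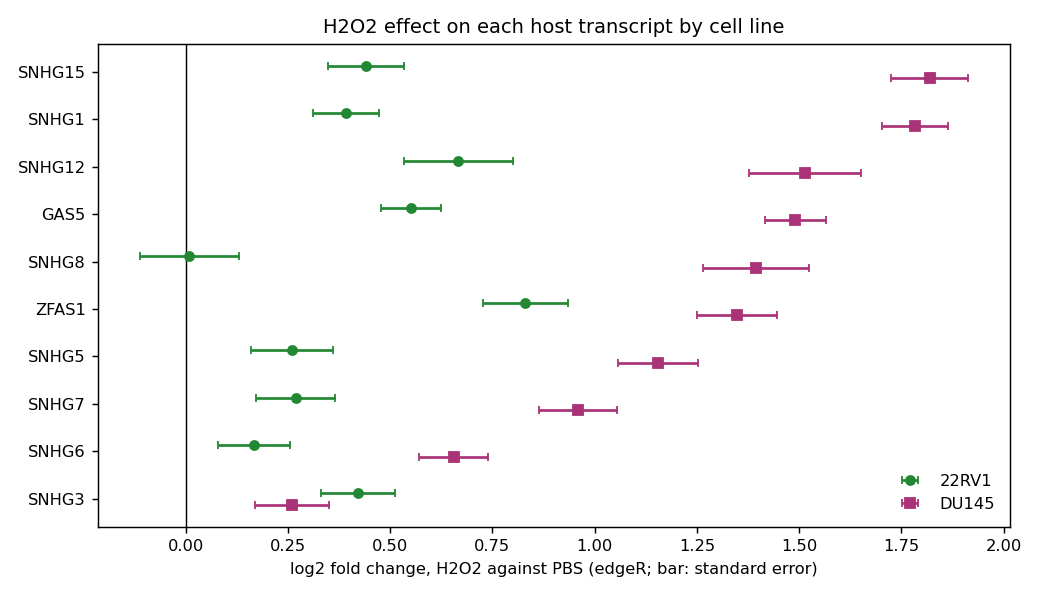
Log2 fold change with H2O2 against PBS (x axis) of each host transcript in 22RV1 (green circles) and DU145 (purple squares), from edgeR with bars of 1 standard error. The purple squares lie right of the green circles for 9 genes, from SNHG15 (1.82 against 0.44) to SNHG6 (0.66 against 0.17), and left of it for SNHG3 (0.26 against 0.42).

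In 22RV1 the increase was smaller and did not take in every host. Of the 10, 7 were higher by edgeR's quasi-likelihood test, where 12.8% of all genes tested were higher, and none was lower, where 14.9% were. The median log2 fold change was 0.41, against -0.00 over all genes tested. With counts scaled to library totals 9 of 10 were higher, and the share of higher genes among all calls went from 46.1% to 64.4%. Over 1.5-fold were GAS5, SNHG12 and ZFAS1 in vector cells, where 17.7% of genes were, and ZFAS1 alone in PAGE4 cells, where 14.8% of genes were. With total counts 6 hosts were in vector cells and 2 in PAGE4 cells. None was over 1.5-fold lower, where 19.7% and 15.7% of genes were.

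ZFAS1 led in 22RV1. It was at 14.9 and 15.9 CPM in the controls and at 26.9 and 26.1 in the treated libraries, vector before PAGE4, which is a log2 fold change of 0.83 ± 0.10 (SE; edgeR adjusted p = 1.21e-05). SNHG12 followed at a gap of 0.16, smaller than the joint SE of 0.17, and went from 15.7 and 18.5 to 28.1 and 24.4 CPM. Its log2 fold change was 0.67 ± 0.13 (SE; edgeR adjusted p = 0.00107), and without the 22RV1 vector pair the adjusted p was 0.0602. GAS5 was at 131 and 154 in the controls and at 189 and 215 in the treated libraries. For these genes the treated libraries of both constructs lay above both controls. GAS5 had a log2 fold change of 0.55 ± 0.07 (SE; edgeR adjusted p = 2.30e-05).

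SNHG15, SNHG3 and SNHG1 rose to a like degree, with neighbouring gaps smaller than their joint SE. Their log2 fold changes in 22RV1 were 0.44 ± 0.09, 0.42 ± 0.09 and 0.39 ± 0.08 (SE), with edgeR adjusted p of 0.00177, 0.00211 and 0.00133. SNHG15 was at 34.7 and 35.1 CPM in the controls and at 47.9 and 43.9 in the treated libraries. SNHG3 was at 36.7 and 37.0 against 47.4 and 48.3, and SNHG1 was at 55.9 and 57.3 against 74.2 and 69.8. None of the treated libraries overlapped a control.

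The last 4 hosts had the smallest changes in 22RV1. SNHG7 went from 49.2 to 65.1 CPM in vector cells but from 44.8 to 46.0 in PAGE4 cells, so the treated PAGE4 library lay below the vector control. Its log2 fold change, 0.27 ± 0.10 (SE; edgeR adjusted p = 0.0480), passed narrowly, and the call was lost under 7 of 9 alternatives, for example without the 22RV1 vector pair, where it was 0.06 (adjusted p = 0.829). SNHG5 went from 43.1 to 57.4 in vector cells and from 52.3 to 52.8 in PAGE4 cells, with a log2 fold change of 0.26 ± 0.10 (SE; edgeR adjusted p = 0.0617). Without the 22RV1 PAGE4 pair it was 0.45 (adjusted p = 0.00132), and with counts scaled to library totals it also passed (0.39, adjusted p = 0.00644). SNHG6 stayed near its controls, at 32.6 and 34.2 against 35.8 and 36.8 CPM. Its log2 fold change was 0.17 ± 0.09 (SE; edgeR adjusted p = 0.181), and with library totals it passed at 0.29 (adjusted p = 0.0194).

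SNHG8 was the only host whose 22RV1 pairs pointed in opposite directions. It was at 32.5 CPM with PBS and 36.0 with H2O2 in vector cells, and at 45.9 with PBS and 39.4 with H2O2 in PAGE4 cells. The pooled log2 fold change was 0.01 ± 0.12 (SE; edgeR adjusted p = 0.977), with a sign that changed in 4 of 9 alternatives.

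Whether the response differed between the lines was tested directly. The H2O2 effect in DU145 minus that in 22RV1 was above 0 for 9 of 10 hosts by edgeR's quasi-likelihood test, where 7.54% of all genes tested were, and below 0 for none, where 8.76% were. SNHG1 (1.39 ± 0.11, adjusted p = 1.93e-07), SNHG8 (1.39 ± 0.18, adjusted p = 3.70e-05) and SNHG15 (1.38 ± 0.13, adjusted p = 1.55e-06) differed most on the log2 scale (± SE). GAS5 differed by 0.94 ± 0.10 (SE; edgeR adjusted p = 7.87e-06) and SNHG5 by 0.90 ± 0.14 (SE; edgeR adjusted p = 0.000256). SNHG12 (0.85, adjusted p = 0.00502), SNHG7 (0.69, adjusted p = 0.00182), ZFAS1 (0.52, adjusted p = 0.0178) and SNHG6 (0.49, adjusted p = 0.0102) followed. SNHG3 gave -0.16 ± 0.13 (SE; edgeR adjusted p = 0.455). By these estimates the order of hosts was not the same in both lines. ZFAS1 was at the top in 22RV1 and the sixth in DU145, and SNHG3 was the fifth and the last. Of these places, the last one of SNHG3 in DU145 was set off from its neighbour by more than the joint SE (0.40 against 0.12). ZFAS1 in DU145 was set off from SNHG5 below it (0.19 against 0.14) but not from SNHG8 above it (0.05 against 0.16). The other places were not set off.

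Without the DU145 PAGE4 pair, the difference for ZFAS1 (adjusted p = 0.253) and SNHG6 (adjusted p = 0.0911) no longer passed, and without the DU145 vector pair SNHG6 did not (adjusted p = 0.0835). With additive terms for line and construct in place of the pairs, ZFAS1 (adjusted p = 0.0533) and SNHG7 (adjusted p = 0.0659) did not. The 9 differences are not independent evidence, since the hosts were chosen with earlier results of these data known.

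Tested as 1 effect over both lines, with the 4 matched pairs as blocks, 9 of the 10 were higher with H2O2, where 8.89% of all genes tested were higher and 11.2% lower. SNHG15 had a log2 fold change of 1.13 ± 0.27 (SE; edgeR adjusted p = 0.0228) and ZFAS1 one of 1.09 ± 0.13 (SE; edgeR adjusted p = 0.00229). ZFAS1 had the smaller SE and the more similar effects in the lines. SNHG8, at 0.69 ± 0.28 (SE; edgeR adjusted p = 0.116), did not pass. With only 4 pairs this count was fragile: it fell to 3 without the DU145 vector pair, to 3 without the DU145 PAGE4 pair and to 5 without the 22RV1 vector pair.

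The lines also differed in level. By edgeR's quasi-likelihood test over 4 matched pairs, 8 of 10 hosts were higher in DU145 than in 22RV1, where 28.5% of all genes tested were higher and 31.9% lower. ZFAS1 (log2 difference 2.22 ± 0.14 SE, adjusted p = 6.07e-06) and SNHG6 (2.02 ± 0.13 SE, adjusted p = 6.41e-06) differed most. SNHG1, SNHG7, SNHG5, SNHG15, SNHG3 and GAS5 lay between 1.76 and 1.07. These differences average the PBS and the H2O2 libraries, so they are not differences of untreated cells. SNHG12 (0.26 ± 0.20 SE, adjusted p = 0.282) and SNHG8 (-0.60 ± 0.27 SE, adjusted p = 0.0905) did not pass, though SNHG8 did in 4 of 9 alternatives, for example without the PAGE4 H2O2 pair (-0.85, adjusted p = 0.0386).

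For SNHG8 the line difference depended on the treatment. With PBS, DU145 was lower with log2 ratios of -1.30 (vector) and -1.36 (PAGE4). With H2O2 the ratios were 0.10 and 0.18, so the lines were then close. SNHG12 moved from -0.18 and -0.22 with PBS to 0.54 and 0.92 with H2O2. SNHG15 moved from 0.37 and 0.43 with PBS to 1.82 and 1.89 with H2O2, and GAS5 from 0.61 and 0.53 to 1.65 and 1.52. SNHG3 kept ratios between 1.02 and 1.20 in all 4 settings.

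**Figure D3:**
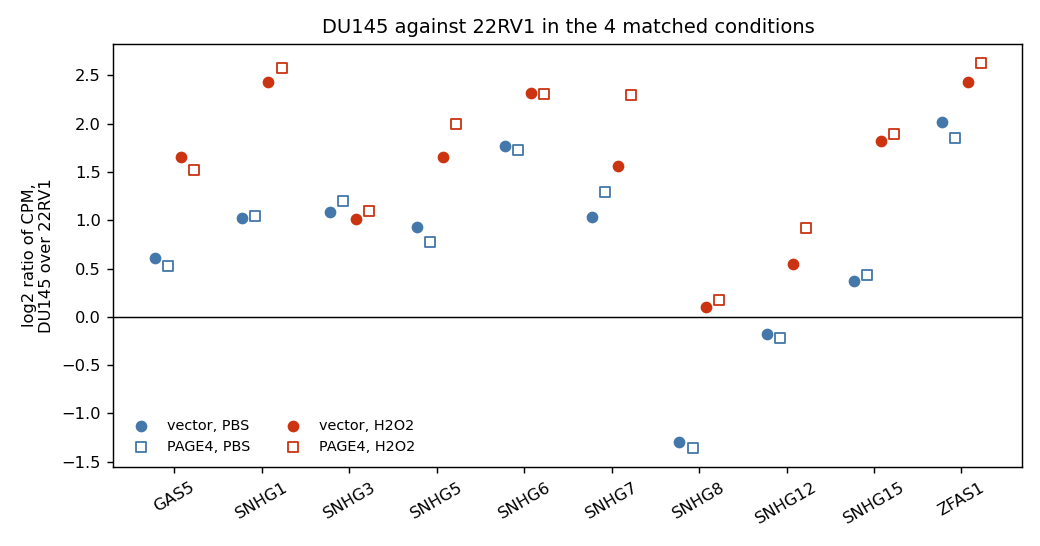
Log2 ratio of CPM in DU145 over 22RV1 (y axis) for each host in the 4 matched conditions, with blue for PBS, red for H2O2, filled circles for vector and open squares for PAGE4. Red points lie above blue points for every gene except SNHG3, and the blue points of SNHG8 lie at -1.30 and -1.36.

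No host transcript passed the test for PAGE4 against vector. By edgeR's quasi-likelihood test, 0 of 10 passed over both lines (2 at an unadjusted p under 0.05), 0 of 10 in 22RV1 (3 unadjusted) and 0 of 10 in DU145 (1 unadjusted). DESeq2's Wald test also called 0 in each. Few genes passed at all: 0.0981% of those tested were higher and 0.0758% lower over both lines, and in DU145 0.112% and 0.0580%. In 22RV1 2.15% were higher and 2.14% lower. Within the 4 pairs of libraries, no host was over 1.5-fold in either direction, while of all genes 8.35% were higher and 11.3% lower in 22RV1 with PBS, and 11.1% higher and 12.1% lower in 22RV1 with H2O2. In DU145 7.54% were higher and 7.76% lower with PBS, and 7.00% higher and 8.20% lower with H2O2. Many of these genes had low counts. With a mean of at least 50 asked, the genes called in 22RV1 went from 3990 to 1215 with PBS and from 4699 to 1770 with H2O2. In DU145 they went from 2768 to 645 and from 2751 to 607. The hosts all had counts above that minimum, so 0 of 10 is not read as a particular stability of the hosts.

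SNHG8 and SNHG7 had the largest PAGE4 differences. SNHG8 was higher in PAGE4 cells in 4 of 4 pairs, by log2 fold changes of 0.53 (22RV1, PBS), 0.13 (22RV1, H2O2), 0.44 (DU145, PBS) and 0.21 (DU145, H2O2). Over both lines this gave 0.31 ± 0.09 (SE; edgeR adjusted p = 0.408). SNHG7 split by line: it was lower in 22RV1 PAGE4 cells by -0.10 with PBS and -0.50 with H2O2, and in DU145 it was at 0.13 and 0.24. In 22RV1 its log2 fold change was -0.31 ± 0.10 (SE; edgeR adjusted p = 0.0925). That value passed without the 22RV1 PBS pair (-0.48, adjusted p = 0.00174), and SNHG8 passed in 22RV1 without the H2O2 pair (0.53, adjusted p = 0.0164). GAS5 was higher in PAGE4 cells in all 4 pairs, by 0.26, 0.18, 0.15 and 0.05 in the same order. SNHG3 (0.03 to 0.12) and SNHG6 (0.02 to 0.10) were also above 0 in all 4 pairs, by less.

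**Figure D4:**
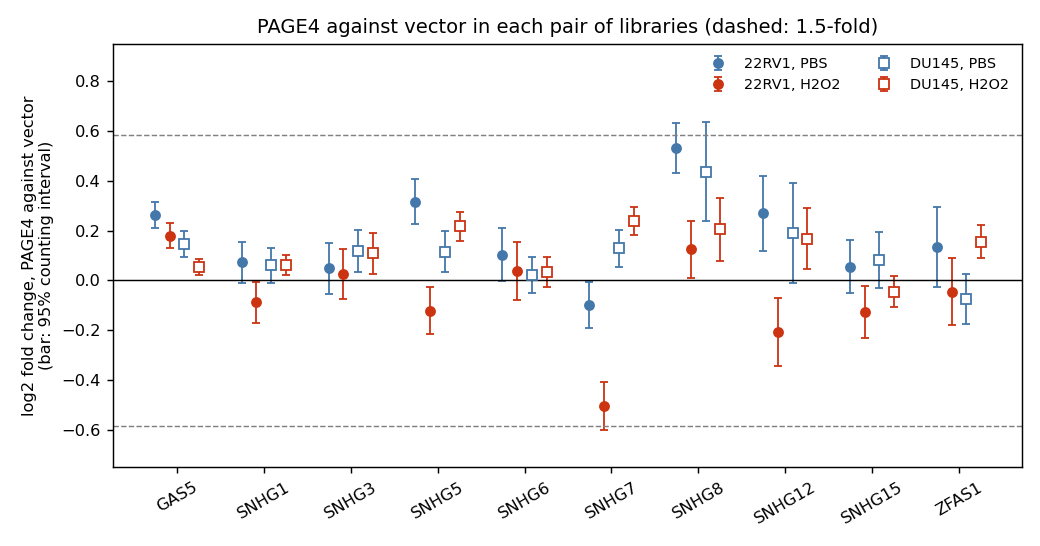
Log2 fold change of PAGE4 over vector (y axis) for each host in the 4 pairs of libraries, with blue for PBS, red for H2O2, filled circles for 22RV1, open squares for DU145, and bars for 95% Clopper-Pearson intervals that cover counting error only. All points lie between the dashed lines at 1.5-fold, SNHG8 is above 0 in all 4 pairs, and the lowest point is SNHG7 in 22RV1 with H2O2 at -0.50.

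With 1 library per condition, the H2O2 response of PAGE4 cells and of vector cells could be set side by side without a test. In 22RV1 the members' median log2 fold change was 0.49 in the vector pair and 0.34 in the PAGE4 pair, and all 10 were smaller in PAGE4 cells, by -0.02 to -0.48 with a median of -0.18. Over all 20264 genes compared, 50.9% were smaller in the PAGE4 pair, with a median of -0.0087. All 10 hosts were above 0 in the vector pair, and genes above 0 in 1 pair tend by that choice to be smaller in another: of the 9872 such genes 73.1% were, also with a median of -0.18, so nothing about PAGE4 is read from the hosts' values. In DU145 the medians were 1.42 and 1.41, and 5 of 10 hosts were larger in PAGE4 cells.

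Genes that share a start region or a span with a host were followed as well, because the strand setting of the counting is not given in the sources used here. Distances are between the outermost starts of the GENCODE spans. Distances from the canonical start of a host can differ, as for GAS5, whose span starts at 173868882 and its canonical transcript at 173867989. SLC3A2, the heavy chain of amino acid transporters, starts 51 bases from SNHG1 on the other strand. It rose with H2O2 in DU145 (log2 fold change 0.91, edgeR adjusted p = 1.51e-05) and in 22RV1 (0.42, edgeR adjusted p = 0.0158), against 1.78 and 0.39 for SNHG1. ZNFX1, a helicase-like zinc finger gene, starts 248 bases from ZFAS1, overlaps it on the other strand and rose by 0.78 in DU145 (edgeR adjusted p = 1.54e-05) and 0.85 in 22RV1 (edgeR adjusted p = 1.11e-05). ZFAS1 gave 1.35 and 0.83. Reads in their overlap cannot be told apart without strand. By GENCODE this overlap lies before the canonical ZFAS1 transcript, which starts at 49278642, as the ZFAS1 span begins at 49278178. ZBTB37, which starts 800 bases from GAS5, gave 0.21 in DU145 (edgeR adjusted p = 0.153) and -0.13 in 22RV1 (edgeR adjusted p = 0.390).

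Among genes that only overlap a host, the directions were mixed. RCC1, a chromatin-bound exchange factor for Ran, shares its strand and its start region with SNHG3, the starts being 37 bases apart, so reads can be split between them. RCC1 rose in DU145 (0.28, edgeR adjusted p = 0.0137) and fell in 22RV1 (-0.24, edgeR adjusted p = 0.0450). MCMDC2, opposite to SNHG6, fell by 0.96 in DU145 (edgeR adjusted p = 0.0148) and by 1.22 in 22RV1 (edgeR adjusted p = 0.00461). GAS5-AS1, PRSS12 and TRNAU1AP did not pass in either line.

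The snoRNAs themselves were hardly covered. Of 16 snoRNA symbols that GENCODE places in a host span and nowhere else, all 16 were listed and 9 were at 0 in every library. None of the 16 lies in GAS5, and those in SNHG1, SNHG5, SNHG6 and SNHG7 were all at 0. The counts below therefore come only from snoRNAs of SNHG3, SNHG8, SNHG12, SNHG15 and ZFAS1. Only 5 passed 10 counts in any library, the highest count being 67, for SNORA73B. Summed over the 16, counts in DU145 were 132 and 118 with PBS and 175 and 192 with H2O2, and in 22RV1 120 and 124 against 160 and 141. Scaled to library totals, the sums were 4.38 and 3.99 CPM with PBS and 6.70 and 7.28 with H2O2 in DU145, and 2.77 and 3.16 against 4.65 and 5.53 in 22RV1, so both treated libraries lay above both controls in each line. Without the exonic SNORA9 the groups did not overlap either, at 4.12 and 3.58 against 6.35 and 6.40 in DU145 and 1.85 and 2.47 against 3.58 and 3.88 in 22RV1. No test was run on these sums, and reads of unspliced host RNA cannot be told apart from snoRNA reads.

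The other genes of the pathway were examined as lists, with the same edgeR fits and by counts alone. The background for these counts is 16.9% of all genes higher and 19.8% lower with H2O2 in DU145, 12.8% and 14.9% in 22RV1, and 8.89% and 11.2% over both lines. Of 16 other noncoding snoRNA hosts, 15 were tested. In DU145, 6 were higher and 2 lower with H2O2, and in 22RV1 5 were higher and 1 lower, with medians of 0.70 and 0.23. The 2 lower of 15 in DU145 are below the background share. Over both lines SNHG17 (log2 fold change 1.28, edgeR adjusted p = 0.0129), EPB41L4A-AS1 (1.17, edgeR adjusted p = 0.00511) and C6orf48 (1.10, edgeR adjusted p = 0.0218) rose. SNHG14, the long host transcript of the imprinted Prader-Willi region, fell (-0.80, edgeR adjusted p = 0.0288).

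Protein-coding hosts had smaller medians. Of 23 ribosomal protein genes that host snoRNAs, 8 were higher and 0 lower in DU145, and 0 were higher and 3 lower in 22RV1, with medians of 0.14 and -0.07. The 3 lower of 23 in 22RV1 are near the background share of 14.9%. Over both lines edgeR called 0 of the 23 (2 at an unadjusted p under 0.05) and DESeq2's Wald test called 1. Of 29 other protein-coding hosts, 20 were higher and 2 lower in DU145, and 6 were higher and 5 lower in 22RV1, with medians of 0.36 and -0.03. TAF1D, a subunit of the RNA polymerase I selectivity factor (0.72, edgeR adjusted p = 0.0156), EIF4A2, a translation initiation helicase (0.69, edgeR adjusted p = 0.0241), RABGGTB, a subunit of a Rab prenylating enzyme (0.66, edgeR adjusted p = 0.00481), and PPAN, a ribosome assembly factor (0.66, edgeR adjusted p = 0.0234), had the largest changes over both lines.

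The proteins that bind and assemble snoRNAs were counted next. Of 17 core and assembly factors, 13 were higher and 0 lower in DU145, and 1 was higher and 5 lower in 22RV1, with medians of 0.51 and 0.05. NOP56, NOP58 and DKC1 stand in this list and among the protein-coding hosts. The test of the difference between lines called 10 of the 17 as higher in DU145 and none as lower, where 7.54% and 8.76% of all genes tested were. ZNHIT6, a box C/D assembly factor (0.72, edgeR adjusted p = 0.0256), and SHQ1, a box H/ACA assembly factor (0.50, edgeR adjusted p = 0.0322), passed over both lines. Of 14 NMD factors, 10 were higher in DU145 and 8 in 22RV1 and none was lower, with medians of 0.53 and 0.36. The difference between lines was called for 5 of the 14 as higher in DU145 and for none as lower. SMG5 (0.75, edgeR adjusted p = 0.00266), UPF1, the central helicase of the pathway (0.75, edgeR adjusted p = 0.0107) and SMG9 (0.71, edgeR adjusted p = 0.0146) changed most over both lines.

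**Figure D5:**
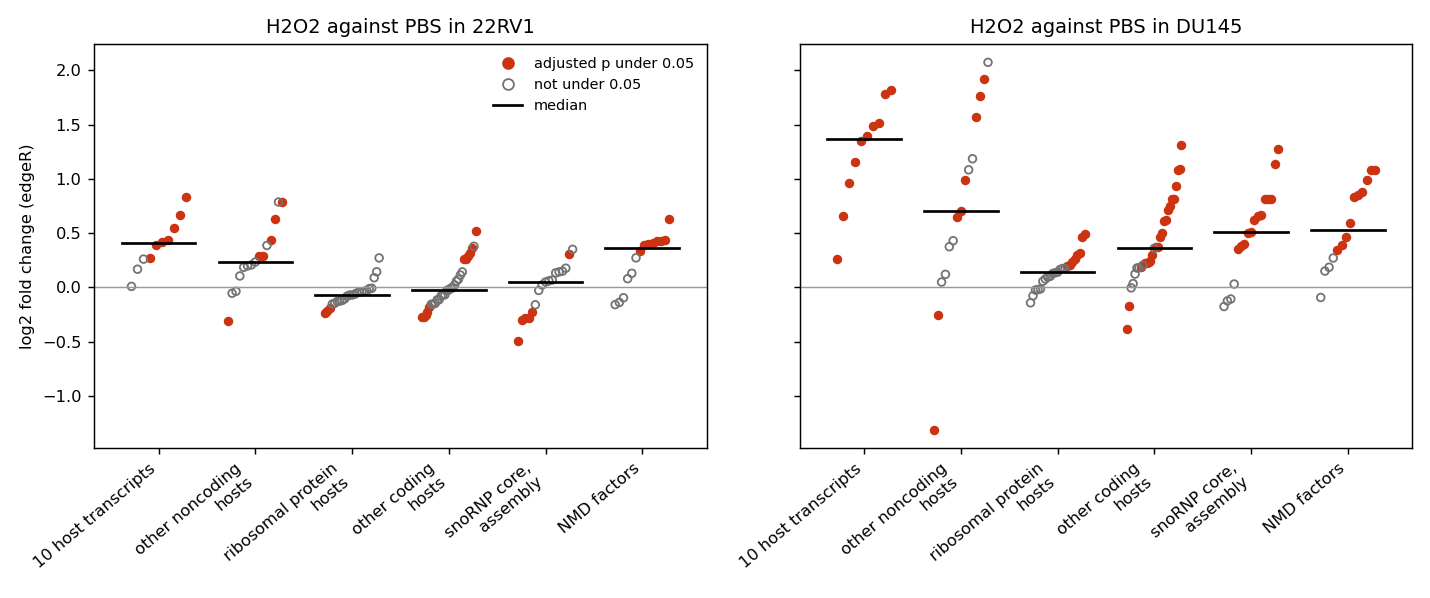
Log2 fold change with H2O2 (y axis) of the 10 host transcripts and of 5 gene lists in 22RV1 (left) and DU145 (right), 1 point per gene, filled red where the edgeR adjusted p is under 0.05, with black bars for medians. The median of the 10 hosts is 0.41 in 22RV1 and 1.37 in DU145, while that of the ribosomal protein hosts is -0.07 and 0.14.

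The genes whose profile was most like the mean of the 10 hosts were TRIB1, AMMECR1L, CRYBB2P1, MFSD9 and DDX18, out of 10248 compared, with Pearson's r of 0.998, 0.998, 0.997, 0.997 and 0.997 over the 8 libraries after centring within each line. The libraries share treatment and depth, so r is a description. The hosts' own r ran from 0.790 for SNHG3 to 0.996 for SNHG6. Each host is part of the mean it was compared with, which raises these values. In DU145 the 5 genes had log2 fold changes between 0.83 and 1.31, below those of SNHG15 and SNHG1. CRYBB2P1 is a pseudogene and can share reads with its parent gene.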

How the data were processed

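RNA-seq of 8 libraries was analysed. Reads were aligned to GRCh38 (HISAT2 2.1.0) and assigned to genes (featureCounts 1.6.0) by the authors, who deposited unnormalized counts, 1 table per cell line. The annotation release and strand setting are not given in the sources used here. The tables list genes by symbol, and 26 symbols had become dates.

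Counts of both lines were joined by symbol, scaled by TMM, filtered with filterByExpr and tested in edgeR 4.0.16 (R 4.3.3) by its quasi-likelihood F-test, with matched pairs of libraries as blocks and Benjamini-Hochberg adjustment over all genes. A gene was called at an adjusted p under 0.05. Within a pair, counts were divided by DESeq2 1.42.0 size factors computed within the line, 0.5 was added, and genes with a mean of at least 10 were called over 1.5-fold. Intervals are exact Clopper-Pearson and cover counting error only. Totals ran from 25482984 to 43310401 counts, and 3 counts were taken as the floor. The test was checked on simulated data: for the common H2O2 effect it recovered 200 of 200 genes changed 4-fold among 20939, with 14 false calls, and for DU145 198 of 200 among 20936, with 16 false calls. The changed genes had a mean over 50 counts, and all libraries shared 1 baseline without a line difference. Smaller changes, as the hosts had, were not simulated, so no recovery rate is given for them.

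Gene coordinates were read from GENCODE release 44 (GRCh38). snoRNAs and start windows come from RefSeq (GRCh38.p14). Members and lists were chosen with earlier results of these data known. Named are all members, their overlapping or divergent neighbours (starts within 1000 bases), snoRNAs in their spans, up to 4 genes per list with the largest change among those called in the common H2O2 fit, and the 5 genes most like the members' mean (at least 5 CPM). Alternatives were DESeq2 size factors, total counts, no filter, DESeq2's Wald test, additive terms, each pair left out, a fold over 2, a minimum of 50 and a pseudocount of 1. Columns of 22RV1 and DU145 tables were all mapped to a library. Some named genes are not reported here.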

Additional observations from a re-analysis of the deposited data

Results flagged for a closer look

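For 9 host transcripts the H2O2 effect differed between the cell lines by a test of the difference itself (edgeR's quasi-likelihood test, Benjamini-Hochberg over all genes), being larger in DU145. In order of size, the DU145 effect minus the 22RV1 effect on the log2 scale was 1.393 for SNHG1, 1.385 for SNHG8 and 1.379 for SNHG15. It was 0.9401 for GAS5, 0.8951 for SNHG5 and 0.8472 for SNHG12. It was 0.6913 for SNHG7, 0.5183 for ZFAS1 and 0.4889 for SNHG6. The 22RV1 effect of SNHG8 was 0.01, pooled from 2 pairs that pointed in opposite directions. The 22RV1 effects of SNHG5 (0.26) and SNHG6 (0.17) were not called either. The share of mitochondrial counts also fell more in DU145 (from 16.5% to 11.2% in vector cells) than in 22RV1 (from 12.3% to 9.19%), and its part in these differences was not tested. Each condition has 1 library, so no library could be set against replicates of its own condition.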

How the results depend on the processing

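Of 720 alternative values of the single hosts, 657 kept their direction and their side of the threshold, 34 lost a call, 12 gained one and 17 changed sign. The counts of hosts called in DU145 (9 to 10), 22RV1 (5 to 9), their difference (7 to 9) and between lines (8 to 9) stayed within 1.5 times of those reported under all alternatives. Over both lines the count of hosts called with H2O2 was 3 to 9 when 1 pair was left out. Within pairs of libraries, the hosts over 1.5-fold with H2O2 in 22RV1 were 6 in vector cells and 2 in PAGE4 cells with total counts, and 0 and 0 when over 2-fold was asked. For PAGE4 in 22RV1, 1 host (SNHG7, lower) was called without the filter, and 0 to 1 when 1 pair was left out. Signs changed for log2 fold changes near 0 that no test called. For H2O2 in 22RV1, SNHG8 was -0.0022 with DESeq2 size factors and with DESeq2's Wald test, -0.0360 without the filter, and -0.1946 to 0.1814 with 1 pair left out. With 1 pair left out, PAGE4 over both lines gave -0.1640 to 0.0861 for SNHG7, -0.0531 to 0.0217 for SNHG15 and -0.0057 to 0.0698 for ZFAS1. For PAGE4 in 22RV1 the ranges were -0.0689 to 0.0684 for SNHG1, -0.1026 to 0.3110 for SNHG5, -0.1880 to 0.2644 for SNHG12, -0.1081 to 0.0497 for SNHG15 and -0.0255 to 0.1288 for ZFAS1. SNHG1 was 0.0054 with DESeq2 size factors and with the Wald test. For PAGE4 in DU145, SNHG15 was -0.0089 with additive terms and -0.0537 to 0.0797 with 1 pair left out, and ZFAS1 was -0.0752 to 0.1476. Why these values moved was not tested.

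Counts over all genes moved most for PAGE4: over both lines 39 genes were called, against 87 by the Wald test, 483 without the filter, 5 with additive terms and 10 to 76 with 1 pair left out. In 22RV1 960 became 44 with additive terms and 776 to 1510 with 1 pair left out. In DU145 38 became 62 with DESeq2 size factors, 63 with total counts, 217 without the filter, 1 with additive terms and 15 to 390 with 1 pair left out. For H2O2, leaving out 1 pair gave 1974 to 3880 genes over both lines (4506 reported), 3702 to 6113 in 22RV1 (6210) and 5143 to 9326 in DU145 (8225). The difference between lines (3655) became 1926 with additive terms and 2121 to 4252 with 1 pair left out. Scaling to total counts moved the median of all genes by 0.12 for H2O2 in 22RV1 and by -0.20 for DU145 against 22RV1 on the log2 scale. It moved the share of higher genes among calls from 44.3% to 61.0% for H2O2 over both lines, from 46.1% to 64.4% in 22RV1, and from 46.3% to 36.6% for the difference of H2O2 effects. The labels give no replicate numbers, and the blocks used are pairs of libraries of matched conditions.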
